A study of Mus musculus with 6 samples.

Results

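The collagen genes were followed through the 3 groups of the light damage experiment as all rows of the count table whose symbol has the form Col, a number, a and a number. This rule took 44 of 23420 genes. They comprised 11 fibrillar chains, 6 basement membrane chains of type IV, 6 chains of type VI, 9 chains of the FACIT class (collagens attached to the surface of fibrils), 3 chains of types VIII and X, 2 multiplexins, 4 membrane-spanning chains and the 3 chains Col7a1, Col26a1 and Col28a1. Retinal RNA was sequenced in 2 libraries per group: untreated control, light, and light plus minocycline. Per the labels, all mice were of the albino strain CD1. The light group received 10000 lux for 1 h, and the light plus minocycline group the same light with 45 mg/kg minocycline (i.p., daily for 4 days), both analysed at day 4. The methods of the study describe adult BALB/cJ mice of both sexes, a higher light intensity and a different injection schedule that began before the light, and which of these applies to the sequenced retinas was not resolved. Neither source states how many retinas or mice entered a library, or whether the light group received solvent injections. The p-values therefore measure the spread between these libraries. Both minocycline libraries carry the same column header and are called minocycline A and B.

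Collagens are the main structural proteins of the extracellular matrix. Each chain holds stretches in which glycine returns at a fixed interval (glycine followed by a pair of other residues), which lets chains wind around each other into a helix. Fibrillar collagens form the fibrils of stroma, sclera and vitreous, type IV collagens form the sheet of basement membranes such as the inner limiting membrane, Bruch's membrane and vessel walls, and FACIT collagens decorate fibrils. In the healthy retina little fibrillar type I collagen is made, whereas vessels and glia deposit type IV collagen. Collagen XVII is a transmembrane protein that anchors basal epithelial cells, for example of the cornea, to their basement membrane.

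The glycine repeat that the members share was read from the coding sequence with the longest reading frame of each gene in GENCODE M21 (GRCm38). The first 45 bases of the longest unbroken repeat are shown for the chains on which the comparisons turn, 5′ to 3′, with the glycine codons in capitals.
Col1a1: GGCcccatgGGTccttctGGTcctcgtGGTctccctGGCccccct
Col3a1: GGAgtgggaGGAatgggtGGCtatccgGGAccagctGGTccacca
Col4a3: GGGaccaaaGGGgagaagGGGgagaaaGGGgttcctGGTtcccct
Col4a4: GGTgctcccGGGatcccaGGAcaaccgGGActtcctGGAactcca
Col20a1: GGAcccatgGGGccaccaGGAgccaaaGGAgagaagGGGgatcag
Col17a1: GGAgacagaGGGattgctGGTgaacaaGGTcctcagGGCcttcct
The classes differed in how far this repeat ran. The longest unbroken run held 338 triplets in Col1a1 and 344 in Col3a1, and its median over the 11 fibrillar chains was 338. In the 6 basement membrane chains it held 39 to 66 triplets, and the repeat was broken into 22 to 27 runs of at least 5 triplets that together filled 74.9% to 78.8% of the codons. In Col20a1 the longest run held 32 triplets and all runs filled 11.01% of the codons, against 34.1% in Col17a1, whose longest run held 55 triplets.

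The basement membrane chains lie in the genome as pairs that start next to each other on opposite strands. Col4a4 (chromosome 1, 82448423 to 82586849, minus strand) and Col4a3 (chromosome 1, 82586921 to 82722059, plus strand) are separated by 71 bases. Col4a1 and Col4a2 (chromosome 8) overlap by 22 bases at their starts, and Col4a6 and Col4a5 (X chromosome) lie 1308 bases apart. The 71 bases between Col4a4 and Col4a3, chr1:82586850-82586920 of GRCm38 on the plus strand, are shown because both neighbours had lower values after light.
Col4a4 and Col4a3: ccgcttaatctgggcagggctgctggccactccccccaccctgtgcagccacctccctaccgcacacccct
Of these bases 69.0% are G or C. They hold no CCAAT box (letters CCAAT), no GC box (letters GGGCGG) and no TATA box (letters TATAAA) on either strand. Of the 44 genes, 35 had promoter windows of 300 bases around their start in RefSeq (GRCm38.p6), 38 windows in all. The GC box was present on either strand in 23 of these windows (60.5%), beside 35.7% of all 32851 windows. The CCAAT box was present in 13 (34.2%, beside 37.4%) and the TATA box in 5 (13.2%, beside 13.6%). These matches are descriptions of the letters only.

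The libraries held 15205930 to 22856922 counts, of which 18372 to 30103 (0.111% to 0.159%) belonged to collagen genes. At this depth a count of 0 allows a level of up to 3 counts, or 0.131 to 0.214 CPM (counts scaled to a common library size with TMM factors), a limit that covers counting error only. Markers of Mueller glia, the radial glia of the retina, were present in all libraries (1969 to 4886 CPM summed over 8 genes), which fits the retina label. Control 1 held 77778 counts of Xist and 11 counts of 4 Y-linked genes, and the other libraries 25 to 188 and 6532 to 12858, so that control 1 came from female tissue and the others from tissue of males or mostly males. Light 2 stood further from the controls than light 1 (microglia markers summed to 854 and 270 CPM, and to 30.4 and 37.2 CPM in the controls). Minocycline A and B both held markers of cells outside the neural retina that were rare in the other libraries, with more of most of them in B. The values are given beside the chains that moved with them. Lens markers summed to 198 CPM in light 1 and to 0.999 to 20.8 CPM in the other libraries. Markers of the retinal pigment epithelium summed to 375 CPM in control 2 and to 137 to 210 CPM in the other libraries.

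Levels of different chains were compared as CPM per kb of the transcript with the longest reading frame. This can be much shorter than all exons of a gene together, as for Col25a1 (2624 and 12947 bases). The highest means over the 6 libraries were those of Col20a1 (23.0 CPM per kb), Col19a1 (18.7), Col6a1 (18.6), Col9a1 (17.7), Col4a3 (16.6), Col23a1 (15.3), Col4a1 (14.4), Col2a1 (14.0), Col11a2 (11.6) and Col25a1 (9.35). This group held FACIT chains, chains of the basement membrane, and the cartilage and vitreous collagens II and XI. The fibrillar chains of connective tissue stood far lower, with means of 1.93 CPM per kb for Col1a2, 0.529 for Col1a1 and 0.380 for Col3a1. The latter 2 means were raised by minocycline B (2.02 and 1.48 CPM per kb), and the other 5 libraries held 0.108 to 0.398 CPM per kb of Col1a1 and 0.0641 to 0.322 of Col3a1. In all 43 pairs of neighbours in this order the ranges over the 6 libraries overlapped. At the low end, Col10a1, the collagen of hypertrophic cartilage, had 0 to 5 counts in a library, Col6a5 1 to 7 counts, and Col26a1 1 to 9 counts.

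**Figure D1:**
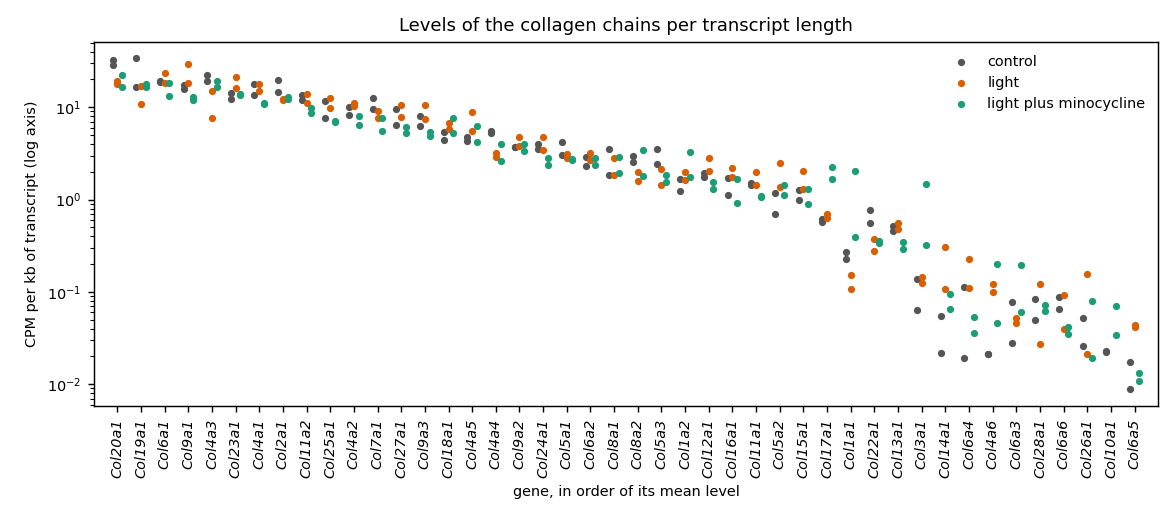
Level of each of the 44 chains in each library, as CPM per kb of transcript on a log axis, in order of the mean over the 6 libraries. Points are libraries, coloured by group, and values of 0 (Col10a1 in both light libraries) are not drawn. The order runs from Col20a1 at 23.0 to Col6a5 at 0.0225 CPM per kb.

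Few collagen genes passed a test between groups, and replicates differed. Summed over the 44 chains, the level was 1311 and 1642 CPM in control 1 and 2, 1277 and 1427 CPM in light 1 and 2, and 1114 and 1214 CPM in minocycline A and B. Both minocycline libraries lay below the other 4, and the light and control libraries overlapped. Of 39 chains with a mean of at least 10 counts, 32 were higher in control 2 than in control 1, with a median difference of 0.28 on the log2 scale. The same number was 31 for light 2 over light 1, with a median difference of 0.30. Over all genes with such a mean, the median differences within these pairs were -0.01 and 0.00. The collagens thus differed between replicates of both groups more in 1 direction than genes in general, and 22 of the 44 chains had their highest level in light 2.

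**Figure D2:**
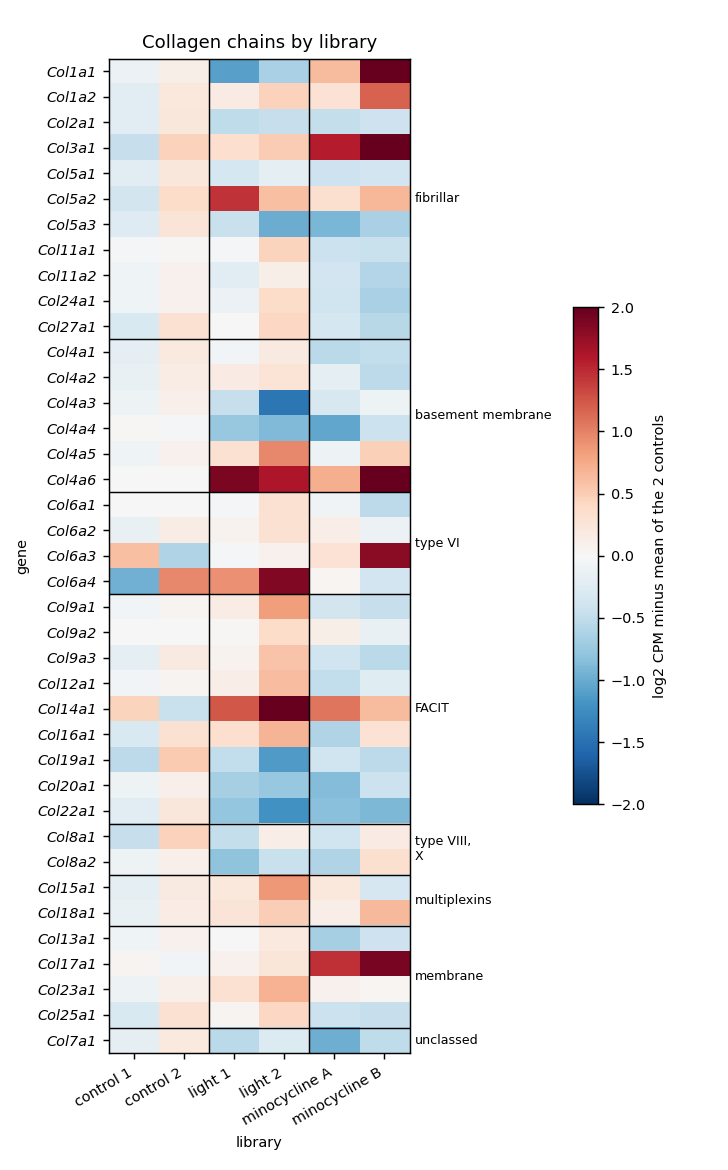
Log2 CPM of 39 collagen chains (rows, grouped by class) in each of the 6 libraries (columns), relative to the mean of the 2 controls. Colours are limited to the range of -2 to 2, which Col1a1, Col3a1 and Col4a6 exceed in minocycline B and Col14a1 in light 2. Col4a3, Col4a4, Col20a1 and Col22a1 are below control in both light libraries, and Col1a1, Col3a1 and Col17a1 are above control in both minocycline libraries.

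Light exposure was compared with control to ask which chains respond to photoreceptor damage. Of the 39 chains that passed the filter on low counts, the basement membrane chain Col4a4 and the FACIT chain Col20a1 fell, the basement membrane chain Col4a6 rose, and 36 did not pass the test. Col4a6 had 2 counts in each control and passed the filter through the light libraries, where it is high, so its call is not read as a result about the class. With genes kept at 10 or more counts in every library, 0 chains were higher. With edgeR's quasi-likelihood test, 1 chain had an adjusted p under 0.05 and was higher, where this applied to 7.52% of the 14349 genes tested, and 2 were lower, beside 3.80% of genes. With the fold cutoff of the study's methods in addition (2 or more on the log2 scale), 1 chain, Col4a6, was higher by its fitted value (2.89% of genes) and 0 were lower (0.0279% of genes). Its lower bound of 3.45-fold lies under this cutoff. Whatever their p, Col4a6 and Col14a1 were the 2 chains with a fitted value of that size upward and separate replicates (3.53% of genes), and 0 chains were lower by it (0.0418% of genes). Col14a1, with 5 and 2 counts in the controls, also passed the filter through the light libraries, so this number is not read as a result about the class. Unadjusted p-values under 0.05 were found for 6 chains in the higher direction (15.4% of chains, beside 16.5% of genes) and for 8 in the lower direction (20.5%, beside 12.4%). The replicates did not overlap in 13 chains upward (33.3%, beside 30.1% of genes) and in 9 downward (23.1%, beside 30.8%). The median log2 fold change of the 39 chains was 0.19, beside 0.00 for all genes, and -0.01 without light 2. Scaling by total library size moved the median of all genes to 0.24 and that of the chains to 0.43, and gave 4 chains higher (beside 13.5% of genes) and 1 lower (beside 0.927%). DESeq2 gave 0 chains higher (beside 8.01% of genes) and 3 lower (beside 5.34%), Col4a4, Col20a1 and Col4a3. With a library left out, the remaining library of its group is assumed to vary like the other group. Col6a3, Col10a1, Col26a1, Col28a1 and Col6a5 were not tested because of low counts.

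Among the basement membrane chains, those of the specialised network of glomerulus, lens capsule and inner ear (Col4a3, Col4a4 and Col4a5) had values in different directions after light. Col4a4 held 774 and 765 counts in control 1 and 2, 552 and 623 in light 1 and 2 and, in minocycline A and B, 608 and 765, or 54.5 ± 1.04, 30.8 ± 1.86 and 33.5 ± 9.81 CPM (SD, n = 2 each). Both light libraries and both minocycline libraries lay below both controls. The log2 fold change of Col4a4 in light against control was -0.81 ± 0.15 (standard error, SE), and edgeR's quasi-likelihood test gave an adjusted p of 0.0140. The adjusted p was 0.0651 without control 1, 0.0788 without control 2 and 0.0796 without light 2. Its neighbour Col4a3, in a head-to-head position with it, had 2317 and 2689 counts in control 1 and 2, 2201 and 1366 in light 1 and 2 and, in minocycline A and B, 3238 and 3111. This was 177 ± 16.7, 96.5 ± 44.9 and 153 ± 16.2 CPM (SD, n = 2 each), with both light libraries below all others and light 2 far below light 1. The log2 fold change of -0.87 (SE 0.33) had an adjusted p of 0.156 in edgeR. DESeq2 called it lower, with an adjusted p of 0.00778. The value was -1.44 without light 1 (adjusted p 0.000159 in edgeR) and -0.46 without light 2 (0.471).

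Col4a5 had 376 and 429 counts in the controls, 602 and 1166 after light, and 606 and 751 with minocycline, or 26.8, 30.2, 35.1, 55.3, 26.5 and 39.7 CPM in the same order. Both light libraries exceeded both controls. The log2 fold change was 0.68 (SE 0.22) and the adjusted p 0.0725 in edgeR, and the value was 0.96 without light 1 (adjusted p 0.00349) and 0.31 without light 2 (0.676). Col4a6, the partner of Col4a5 on the X chromosome, held 2 counts in each control, 14 in each light library and 7 and 25 with minocycline. It was at least 3.45-fold higher after light than the limit of 3 counts in control 1, the shallower of these libraries (edgeR adjusted p 0.0475). This call rested on few counts and was not made by DESeq2 (adjusted p 0.304) or without any single library (0.182 to 0.272 in edgeR). The ubiquitous chains of vessels and glia, Col4a1 and Col4a2, had log2 fold changes of 0.07 and 0.22, with adjusted p-values of 0.830 and 0.371 in edgeR. Control 1 is of another sex than the other libraries, and Col4a5 and Col4a6 lie on the X chromosome. Without control 1, the value was 0.58 for Col4a5. The fitted value of Col4a6, whose controls were at the limit, was 2.33 with and without control 1. The part of sex in these differences was not tested.

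The ratio of chains within a library does not depend on library scaling. Per kb of transcript, Col4a5 amounted to 0.781 and 0.902 times Col4a4 in the controls, 1.75 and 3.01 times in light 1 and 2 and, in minocycline A and B, 1.60 and 1.58 times. The lowest of the 4 light-exposed libraries stood above both controls. The ratio of Col4a3 to Col4a5 was 4.53 and 4.61 in the controls, 2.69 and 0.861 after light and 3.93 and 3.04 with minocycline, so that both light libraries lay below all others. The ratio of Col4a1 to Col4a2, which assemble into a common helix, was 1.66 and 1.77 in the controls, 1.47 and 1.60 after light and 1.33 and 1.75 with minocycline, with both light libraries below both controls. For groups of 2, an exact permutation test cannot reach a p of 0.05, and these ratios are given as values only.

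Among the FACIT chains, Col20a1 had 1787 and 2094 counts in the controls, 1491 and 1706 after light and 1721 and 1918 with minocycline. Its level was 137 ± 13.9, 83.8 ± 4.24 and 88.4 ± 18.5 CPM (SD, n = 2 each). Both light libraries lay below both controls. The log2 fold change was -0.70 (SE 0.15), with an adjusted p of 0.0197 in edgeR. The adjusted p in edgeR was 0.0624 without control 1, 0.0927 without control 2, 0.197 without light 2 and 0.0601 with total library size. Col22a1, a collagen of tissue junctions, went the same way without passing the test (68 and 96 counts in the controls, 57 and 51 after light; log2 fold change -1.01, adjusted p 0.0885 in edgeR). Col14a1, a fibril-associated chain of connective tissue, held 5 and 2 counts in the controls, 12 and 42 after light and 14 and 8 with minocycline. It passed the filter on low counts through the light libraries, where it is high. Its fitted difference from control was 2.44 ± 0.71 (log2, SE), and the adjusted p of 0.0506 in edgeR missed the threshold. The difference was 2.97 without light 1 (adjusted p 0.00565 in edgeR), 1.47 without light 2 (0.591), 3.21 without control 1 (0.129) and 1.92 without control 2 (0.277). The chains of collagen IX, a partner of collagen II in cartilage and vitreous, had fitted values above 0 (Col9a1 0.54, Col9a2 0.21 and Col9a3 0.34), with adjusted p-values of 0.135 to 0.590 in edgeR. For Col9a1 the value was 0.85 without light 1 (adjusted p 0.00928 in edgeR) and 0.15 without light 2 (0.867).

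None of the 11 fibrillar chains passed the test after light. Col5a2, a regulatory chain of type I fibrils, came from 65 and 110 counts in the controls to 284 and 193 after light, or from 6.18 ± 2.19 to 12.8 ± 5.23 CPM (SD, n = 2 each). Both light libraries were above both controls, and light 1 was the higher. Its log2 fold change was 1.06 (SE 0.36), with an adjusted p of 0.0854 in edgeR, and its value was 1.43 without light 2 (adjusted p 0.00452) and 0.57 without light 1 (0.352). Within a library, Col5a1 amounted to 4.37 and 3.56 times Col5a2 per kb in the controls and to 1.12 and 2.28 times in the light libraries. The type II chain Col2a1 had 74.6 and 102 CPM in the controls and 61.1 and 63.4 CPM after light (log2 fold change -0.50, adjusted p 0.0836 in edgeR), and Col5a3 14.8 and 21.4 against 13.1 and 8.86 CPM (log2 fold change -0.72, adjusted p 0.106 in edgeR). The remaining fibrillar chains Col1a1, Col1a2, Col3a1, Col5a1, Col11a1, Col11a2, Col24a1 and Col27a1 had log2 fold changes of -0.92 to 0.42 and adjusted p-values of at least 0.209 in edgeR. Of the type VI chains, Col6a1 and Col6a2 had log2 fold changes of 0.15 and 0.19, and the low chains Col6a4 and Col6a6 1.33 and -0.18, each with an adjusted p above 0.05 in edgeR. The 4 membrane chains all had fitted values above 0, with Col23a1 at 0.52 (adjusted p 0.0655 in edgeR; 70.0 and 79.9 CPM in the controls, 92.5 and 122 CPM after light). Of the remaining chains, Col8a2 of the type VIII collagen of the corneal Descemet's membrane (-0.61) and Col7a1 of the anchoring fibril (-0.40) had unadjusted p-values under 0.05 in the edgeR fit, with adjusted values of 0.146 and 0.148.

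**Figure D3:**
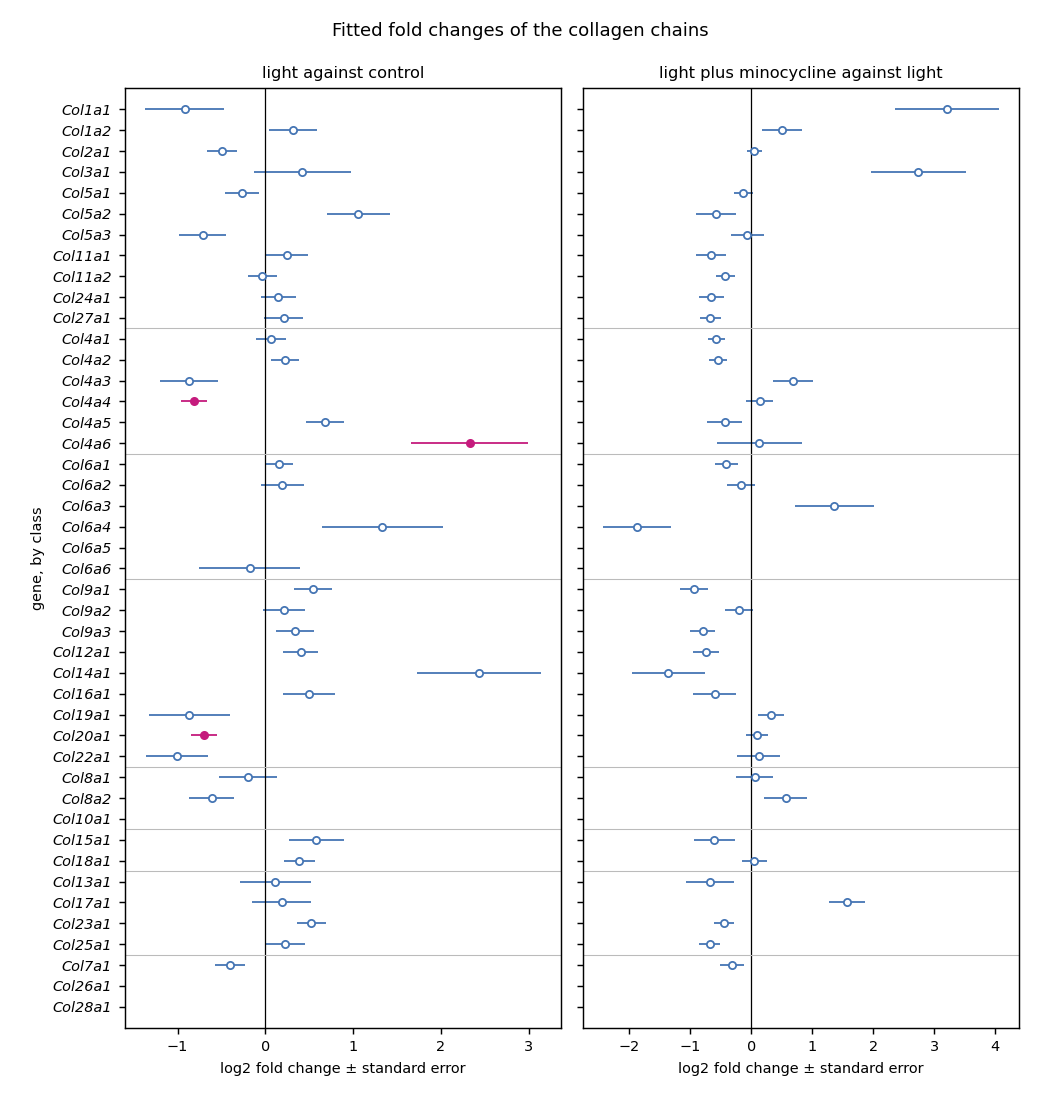
Fitted log2 fold change of each tested chain (points; bars are the standard error) for light against control (left) and light plus minocycline against light (right), with genes in order of class. Filled points had an adjusted p under 0.05: Col4a4, Col4a6 and Col20a1 on the left and no chain on the right, and genes without a point were not tested.

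Minocycline-treated, light-exposed retinas were then compared with light-exposed retinas, the comparison that asks for an effect of the drug. No collagen chain passed the test here. With edgeR's quasi-likelihood test, 0 of 39 chains had an adjusted p under 0.05 in either direction, beside 0.0136% of 14750 genes higher and 0.0407% lower. With the fold cutoff in addition, these shares of genes were 0.0136% and 0.0339%. At an unadjusted p under 0.05 there were 15 chains, 3 higher (7.69% of chains, beside 9.04% of genes) and 12 lower (30.8%, beside 12.1%). DESeq2 gave an adjusted p under 0.05 for 3 chains higher (beside 3.14% of genes) and 5 lower (beside 4.98%). The libraries of the 2 groups did not overlap in 17 chains downward (43.6%, beside 28.1% of genes) and in 5 upward (12.8%, beside 26.8%). The median log2 fold change of the tested chains was -0.32, beside 0.01 for all genes. It lay between -0.45 and -0.21 with any library of these groups left out. With total library size it was -0.50, beside -0.17 for all genes.

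The chains with lower values belonged to several classes. Among basement membrane chains, Col4a1 had 100 and 117 CPM after light and 71.1 and 73.7 CPM with minocycline (log2 fold change -0.57, SE 0.14), and Col4a2 had 66.5 and 71.4 against 52.1 and 41.1 CPM (-0.55, SE 0.15). Neither pair of replicates overlapped, and the adjusted p-values were 0.0901 and 0.104 in edgeR. Col9a1 had 70.5 and 114 CPM after light and 49.1 and 46.2 CPM with minocycline, and its log2 fold change of -0.94 had an adjusted p of 0.0941 in edgeR. It was -1.26 without light 1 (adjusted p 0.00951 in edgeR) and -0.57 without light 2 (0.453). Col9a3 followed at -0.80, Col12a1 at -0.75, Col25a1 at -0.69, Col27a1 at -0.67, Col11a1 at -0.66 and Col24a1 at -0.65, each with minocycline libraries below both light libraries and an adjusted p of 0.0933 to 0.190 in edgeR. Col23a1 (-0.45) and Col11a2 (-0.43) also had unadjusted p-values under 0.05, with adjusted values of 0.176 and 0.184 in edgeR. Col6a4, a chain with 14 and 35 counts after light and 9 and 5 with minocycline, had a log2 fold change of -1.88 and an adjusted p of 0.126 in edgeR. Of the chains that were lower after light, Col4a4 and Col20a1 had log2 fold changes of 0.13 and 0.09 against light alone, with adjusted p-values of 0.779 and 0.820 in edgeR, and Col4a3 had 0.68 with 0.308. The other tested fibrillar and basement membrane chains had log2 fold changes of 0.05 (Col2a1), -0.13 (Col5a1), -0.58 (Col5a2), -0.06 (Col5a3), -0.44 (Col4a5) and 0.13 (Col4a6), and the type VI chains Col6a1 and Col6a2 -0.41 and -0.17, none with an unadjusted p under 0.05. The multiplexins, Col15a1 and Col18a1, had -0.61 and 0.05 against light alone, and 0.58 and 0.39 for light against control, where both light libraries lay above both controls (adjusted p 0.254 and 0.178 in edgeR).

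Among the 39 chains with a mean of at least 10 counts, Col17a1, Col1a1 and Col3a1 were the 3 with higher values in both minocycline libraries than in all others, beside 5.30% of 14490 such genes. Both minocycline libraries lay below the other 4 in 13 of these chains, beside 8.57% of genes. Col17a1 held 48 and 45 counts in the controls, 60 and 83 after light and, in minocycline A and B, 212 and 237, or 3.29 ± 0.186, 3.71 ± 0.310 and 10.9 ± 2.31 CPM (SD, n = 2 each). Its log2 fold change was 1.56 (SE 0.30) against light alone and 1.77 (SE 0.30) against control, with adjusted p-values of 0.0698 and 0.0861 in edgeR and of 0.00118 and 0.00122 in DESeq2. Against light alone, the adjusted p in edgeR was 0.0494 without minocycline A, 0.202 without minocycline B, 0.0780 without light 1 and 0.262 without light 2. Against control it was 2.05e-05 without minocycline A, 0.00784 without minocycline B, 0.299 without control 1 and 0.665 without control 2. Col1a1, a chain of type I collagen, held 19 and 23 counts in the controls, 11 and 19 after light and, in minocycline A and B, 54 and 226. This gave 1.36, 1.62, 0.641, 0.900, 2.36 and 11.95 CPM, most of it in minocycline B. Col3a1, the chain of type III collagen in vessels and loose connective tissue, held 5 and 11 counts, 12 and 17 counts, and 41 and 156 counts in the same order of groups, again with the most in minocycline B. The log2 fold changes against light alone were 3.21 (SE 0.86) for Col1a1 and 2.74 (SE 0.78) for Col3a1, with adjusted p-values of 0.125 and 0.129 in edgeR and of 0.000988 and 0.0102 in DESeq2. Without minocycline A the values were 3.97 and 3.47 (adjusted p 0.00642 and 0.0114 in edgeR), and without minocycline B they were 1.60 and 1.24 (0.239 and 0.315). Col1a1 and Col3a1 were the 2 tested chains higher by 2 or more on the log2 scale with separate replicates, 5.13% of the 39 chains beside 0.949% of all genes, and 0 chains were lower by that size (2.45% of genes).

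**Figure D4:**
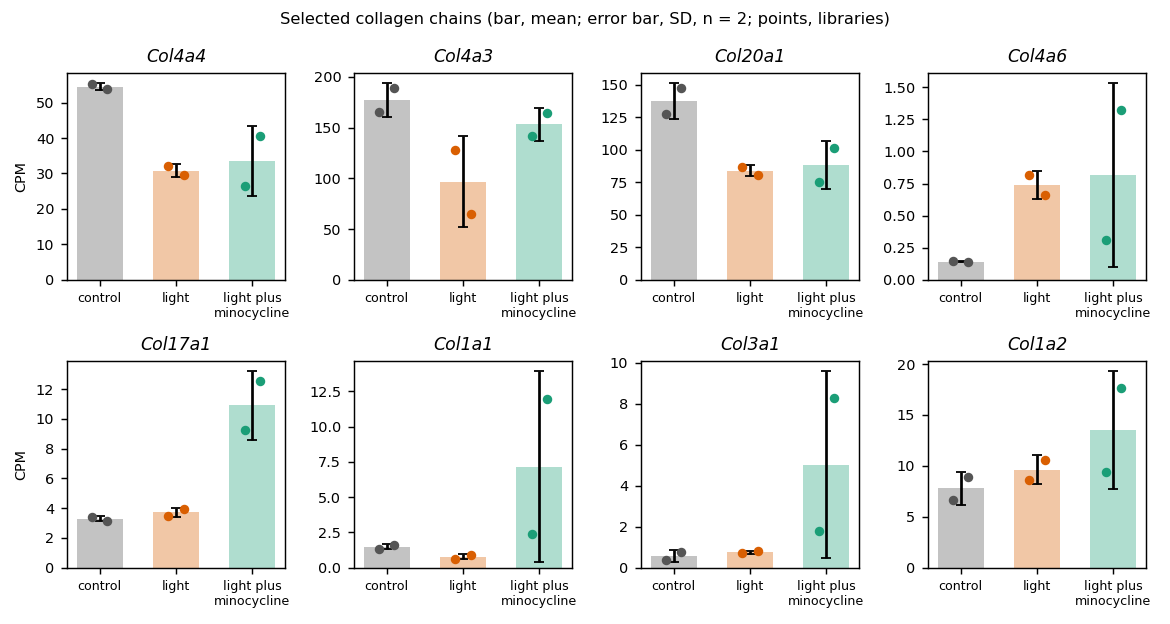
CPM of 8 chains in the 3 groups. Bars are means, error bars the SD (n = 2) and points the libraries. Both light libraries lie below both controls for Col4a4, Col4a3, Col20a1 and Col1a1, and Col17a1, Col1a1 and Col3a1 are higher in both minocycline libraries than in all others, with minocycline B at 11.95 CPM for Col1a1 and 8.25 CPM for Col3a1.

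Col1a2, which pairs with Col1a1 in type I collagen, did not share the size of this difference. Its counts were 93 and 127 in the controls, 148 and 224 after light and 215 and 333 with minocycline, with a log2 fold change of 0.50 against light alone (adjusted p 0.443 in edgeR). Per kb of transcript, Col1a1 amounted to 0.184 and 0.163 times Col1a2 in the controls, 0.0670 and 0.0765 times after light and, in minocycline A and B, 0.227 and 0.612 times. The groups did not overlap in this ratio. The type VI chain Col6a3, another chain of connective tissue, held 11 and 4, 8 and 11, and 14 and 37 counts in the same order, with a log2 fold change of 1.36 and an adjusted p of 0.287 in edgeR.

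Markers of other cells moved with these chains. The 12 stromal genes summed to 28.2 to 45.0 CPM in the control and light libraries and to 68.2 and 170 CPM in minocycline A and B. Of these, Dcn, the proteoglycan decorin that binds type I fibrils, held 322 and 1342 counts in minocycline A and B and 15 to 52 elsewhere. Kera, a proteoglycan of the corneal stroma, was at 0 or 1 count in all libraries. The 8 smooth muscle genes, Acta2 and Myh11 among them, summed to 46.9 to 94.6 CPM in the control and light libraries and to 131 and 422 CPM with minocycline, and the 7 pigment cell genes to 16.7 to 74.9 CPM and to 312 and 1397 CPM. In each of these lists minocycline B exceeded minocycline A, as for Col1a1 and Col3a1. Synpo2 held most of the smooth muscle sum in the control and light libraries (24.8 to 69.4 CPM) and did not follow the other smooth muscle genes. It was lower after light (log2 fold change -1.25, adjusted p 0.00627 in edgeR) and, with minocycline, differed from control by 0.01. The 12 genes of corneal and conjunctival epithelium summed to 2.74 to 16.3 CPM in the control and light libraries and to 199 and 282 CPM in minocycline A and B. Krt12, the keratin of the corneal epithelium, had 1798 and 2405 counts with minocycline and 6 to 128 elsewhere. With an adjusted p under 0.05 in edgeR against light alone, 1 of 10 tested epithelial genes (Dsp), 0 of 10 stromal, 0 of 7 smooth muscle and 0 of 7 pigment cell genes were higher, beside 0.0136% of all genes. At an unadjusted p under 0.05 these numbers were 9, 5, 6 and 7 (beside 9.04% of all genes), and 0 genes of these lists were lower (beside 12.1%). Synpo2 is 1 of the 6 smooth muscle genes. Several of the genes, Dsp (6 and 18 counts after light) and Lum (2 and 6) among them, passed the filter through the minocycline libraries. Whether these cells contributed to the collagen counts was not tested. In bulk RNA, more cells of a type and more RNA per cell cannot be told apart.

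**Figure D5:**
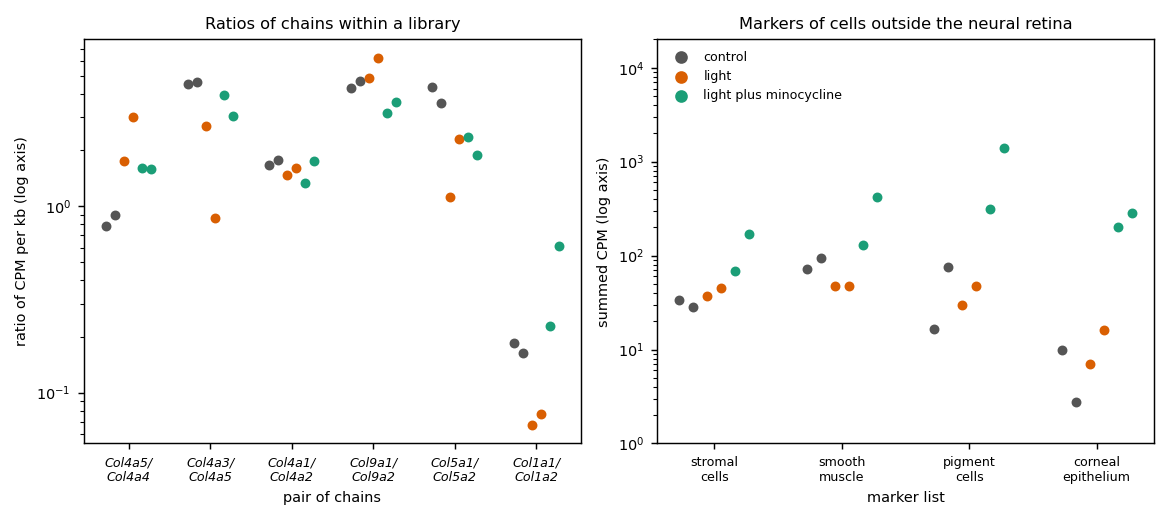
Left, ratio of the levels per kb of pairs of collagen chains in each library, on a log axis. Right, summed CPM of markers of stromal cells, smooth muscle, pigment cells and corneal epithelium in each library, on a log axis. Col4a5/Col4a4 is higher in all light-exposed libraries (1.58 to 3.01) than in the controls, and all 4 marker sums are highest in the minocycline libraries, with 1397 CPM of pigment cell genes in minocycline B.

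Light plus minocycline was compared with untreated control to see how far the chains lay from the normal retina. With edgeR's quasi-likelihood test, 0 of 36 tested chains had an adjusted p under 0.05, beside 0.162% of 14181 genes higher and 0% lower. At an unadjusted p under 0.05, 4 chains were higher (11.1% of chains, beside 5.39% of genes) and 10 lower (27.8%, beside 1.62%). DESeq2 gave 3 chains higher (beside 1.16% of genes) and 0 lower (beside 0.0282%) at an adjusted p under 0.05. Both minocycline libraries lay below both controls in 20 chains, or 55.6% of the chains tested, beside 24.5% of all genes, and above both in 4 (11.1%, beside 15.5%). A fold change of 2 or more on the log2 scale with separate replicates was found upward in 2 chains, Col1a1 and Col3a1 (1.31% of genes), and downward in 0 (0.0212% of genes), and 0.134% of all genes passed the test upward with this cutoff. Of the 2 chains, Col3a1 held 5 and 11 counts in the controls and passed the filter through the minocycline libraries. The median log2 fold change was -0.32, beside 0.02 for all genes. It was -0.10 without control 2, the control with the higher collagen levels, and without this library 2 of 39 chains had an unadjusted p under 0.05 in either direction, beside 486 of 14779 genes. The 10 chains were Col7a1 (-0.70), Col4a4 (-0.66), Col20a1 (-0.59), Col5a3 (-0.76), Col4a1 (-0.49), Col11a2 (-0.44), Col22a1 (-0.87), Col24a1 (-0.48), Col9a1 (-0.38) and Col2a1 (-0.43), given with their log2 fold changes, and their adjusted p-values lay between 0.421 and 0.703 in edgeR. The 4 higher chains were Col17a1, Col3a1 (3.17), Col1a1 (2.30) and Col1a2 (0.83). The value of Col3a1 was 3.89 without minocycline A and 1.65 without minocycline B, and that of Col1a1 3.04 and 0.66. For Col4a4 these values were -0.39 and -1.04. With 1 minocycline library left, the spread comes from the 2 controls alone. This comparison and the one of light against control share the controls. Side by side, the log2 fold changes against control after light and after light plus minocycline were -0.81 and -0.66 for Col4a4, -0.70 and -0.59 for Col20a1, -0.87 and -0.17 for Col4a3, and 0.54 and -0.38 for Col9a1.

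Collagen chains are modified, folded, trimmed and cross-linked by a set of enzymes and chaperones, of which 32 were examined as a list. After light, 2 of the 28 tested genes had an adjusted p under 0.05 in edgeR and both rose, with 0 lower, beside 7.52% of all genes that passed upward. At an unadjusted p under 0.05, 10 were higher and 1 lower, beside 16.5% and 12.4% of all genes. Bmp1, the protease that removes the C-terminal propeptide of fibrillar procollagens, held 182 and 226 counts in the controls, 473 and 821 after light and 353 and 204 with minocycline, with a log2 fold change of 1.21 and an adjusted p of 0.0132 in edgeR. Fkbp10, a chaperone that acts in collagen cross-linking, held 28 and 28, 80 and 153, and 103 and 90 counts (log2 fold change 1.60, adjusted p 0.0240 in edgeR). Serpinh1, the collagen chaperone HSP47, had 78 and 59, 133 and 226, and 174 and 261 counts (log2 fold change 0.94, adjusted p 0.0723 in edgeR). The list's median log2 fold change was 0.42 after light. With minocycline against light alone it was -0.17, with 0 of 29 genes past an adjusted p of 0.05 in edgeR and, at an unadjusted p under 0.05, 0 higher and 5 lower, Bmp1 (-1.33) among them, beside 9.04% and 12.1% of all genes.

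Of 10 collagen receptors, 3 of 8 tested genes rose after light and 0 fell, beside 7.52% and 3.80% of all genes. Ddr1, a receptor tyrosine kinase activated by collagen, had 706 and 629 counts in the controls, 1568 and 2518 after light and 2006 and 907 with minocycline (log2 fold change 1.17, adjusted p 0.00806 in edgeR). Itgb1, the beta chain of the collagen-binding integrins, had a log2 fold change of 0.81 (adjusted p 0.0408 in edgeR), and Lair1, an inhibitory collagen receptor of leukocytes, of 1.27 (adjusted p 0.0439 in edgeR). Microglia markers moved with Lair1, and their part in its difference was not tested. Of 15 laminins and other partners of type IV collagen in basement membranes, 1 of 13 tested genes rose after light and 0 fell, beside 7.52% and 3.80% of all genes, and 4 were higher at an unadjusted p under 0.05 (beside 16.5%). Agrn, the heparan sulfate proteoglycan agrin, held 1815 and 2291 counts in the controls, 3366 and 6165 after light and 2692 and 2083 with minocycline (log2 fold change 0.76, adjusted p 0.0451 in edgeR). Against light alone, 0 genes of either list had an adjusted p under 0.05 in edgeR with minocycline. At an unadjusted p under 0.05, 1 receptor gene was higher and 1 lower, and 1 laminin or partner gene was higher and 3 were lower, beside 9.04% and 12.1% of all genes. Against control, 0 genes of the 3 lists passed the test with minocycline.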

How the data were processed

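Retinal mRNA of 2 control, 2 light-exposed and 2 light-exposed, minocycline-treated samples was analysed. Per the study's methods, stranded mRNA libraries were sequenced as single reads, and the authors used the RNA Express workflow (STAR on mm10, which is GRCm38) and tested groups in pairs with DESeq2. The gene annotation, tool versions and use of strand in counting are not given in the sources used here. The values deposited by the authors are raw counts per gene (whole numbers, not scaled, although the data statement calls them normalized), so that depth differed between libraries as given in the report. No value column was left unused. Symbols of all 44 members matched GENCODE M21. Reads were not analysed, so reads shared between repetitive chains, and between overlapping genes such as Col4a1 and Col4a2, could not be separated.

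Each comparison was a separate fit of its 4 libraries in edgeR 4.0.16 under R 4.3.3 (genes kept by filterByExpr, TMM factors, robust quasi-likelihood F test, Benjamini-Hochberg adjustment over all tested genes, threshold 0.05). Standard errors (SE) are the log2 fold change divided by the square root of F. CPM values used TMM factors of all 6 libraries, and log2 CPM a prior count of 2. A group with 3 counts or fewer in both libraries was at the limit of detection. The fits were tested on simulated data. Replicates of a group differed by more than counting noise (chi-square 28.7 to 32.2 times its degrees of freedom). Chains named are those past the threshold, those with a log2 fold change of at least 2 and separate replicates, the 10 with the highest level per length, and all tested fibrillar, type IV and type VI chains, with others by class. Col17a1, Col22a1, Col8a2, Col7a1, Col12a1, Col9a2, Col9a3 and the multiplexins fall outside this rule and were chosen after their values were seen. Members and lists (classes, biosynthesis, receptors, basement membrane partners and cell type markers) were chosen with earlier results of these data known. Alternatives were DESeq2 1.42.0 without shrinkage, other scalings, filters and thresholds, no robust estimation, all 6 libraries in one fit, the replicate number as a block, a prior count of 0.5, and each library left out. One marker list is not reported here. No test for outlying libraries was made, since each group has 2.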

Additional observations from a re-analysis of the deposited data

How the results depend on the processing

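With 2 libraries per group the calls depended on the processing. Against 1 chain higher after light, DESeq2, DESeq2 size factors, a joint fit of all 6 libraries, a filter of 10 counts per library and an adjusted p under 0.01 gave 0, total library size, upper quartile and no filter gave 4, an adjusted p under 0.1 gave 5, and leaving out a library 0 to 4. Against 2 chains lower, total library size gave 1, the fold cutoff and an adjusted p under 0.01 gave 0, an adjusted p under 0.1 gave 4, and leaving out a library 0 to 4. DESeq2 and no filter each gave 3 chains lower. With the replicate number as a block, 6 chains were higher and 6 lower (beside 11.6% and 5.97% of genes), although same-numbered control and light libraries did not deviate together (r = -0.021 over 12673 genes, 2 pairs). The median after light was 0.43 with total library size, and ranged from -0.0054 (reversed, without light 2) to 0.31 with a library left out.

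For minocycline against light, DESeq2 gave 3 chains higher and 5 lower, no filter 1 and 3, the joint fit 1 and 1, an adjusted p under 0.1 1 and 5, and leaving out a library 0 to 3 in both directions. The median was -0.50 with total library size and -0.45 to -0.21 with a library left out. For minocycline against control, DESeq2 gave 3 chains higher, no filter and an adjusted p under 0.1 gave 1, and leaving out a library 0 to 5 higher and 0 to 3 lower, with medians of -0.44 to -0.10. No paired analysis was possible because the minocycline columns share a header without separate numbers. Single chains were followed under these alternatives only if they stood out in the main fit. They had an unadjusted p under 0.05 in edgeR or differed by 1 or more on the log2 scale. Settings in which the filter dropped a chain were not counted, and some group levels were counted with the chains. Of these values, 499 kept direction and side of the threshold, 60 passed it, 15 no longer did and 0 reversed. Chains with smaller differences are not covered by these numbers. The causes were not tested. Calls over all genes moved too: higher after light were 9.11% of genes with upper quartile, 8.01% without a filter, 5.57% in the joint fit and 0.0269% to 11.4% with a library left out. With minocycline against light, no filter gave 1.34% higher and 2.63% lower, and the joint fit 0.918% and 2.40%. Col4a6 and Col14a1 had 2 to 5 counts in each control.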

Other observations

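Cells that deposit or border type IV collagen were also followed by their markers. After light, with an adjusted p under 0.05 in edgeR, 2 of 6 tested pericyte genes, 1 of 7 endothelial genes, 3 of 8 Mueller glia genes, 3 of 8 microglia genes, 1 of 4 genes of ciliary epithelium and zonule, 1 of 5 tested epithelial genes and 1 tested lens gene were higher, beside 7.52% of all genes. With the same test, 1 of 7 genes of the retinal pigment epithelium and 1 of 6 smooth muscle genes (Synpo2) were lower, beside 3.80% of all genes, and 0 stromal and 0 pigment cell genes passed it. The epithelial gene Krt15 (2 and 3 counts in the controls) and the lens gene Bfsp2 (9 and 16) passed the filter through the light libraries. Bfsp2 held 54 and 120 counts in light 1 and 2, where the lens crystallin Cryaa held 1863 and 1, so its call is not read as a result about lens. The pericyte genes summed to 34.0 and 30.6 CPM in the controls, 49.5 and 74.4 CPM after light, and 46.8 and 43.2 CPM with minocycline. The endothelial genes summed to 213 and 183, 275 and 357, and 283 and 208 CPM in the same order. For both lists the light libraries exceeded the controls. Kdr, the 1 endothelial gene that passed, held most of that list's sum (136 and 112 CPM in the controls, 197 and 253 CPM after light). The other tested endothelial genes had log2 fold changes of -0.20 (Cldn5) to 0.44 (Esam). The 2 pericyte genes that passed were Cspg4 (4.43 and 12.4 CPM in light 1 and 2, 1.21 and 1.48 in the controls) and Anpep (4.25 and 18.2 CPM, 0.0714 and 0.0703 in the controls, where it had 1 count each, so that it passed the filter through the light libraries), and they held much of the list's sum in light 2. With minocycline against light alone, 0 genes of the pericyte, endothelial, Mueller glia, microglia, lens, ciliary and pigment epithelium lists had an adjusted p under 0.05 in edgeR, and at an unadjusted p under 0.05, 2 of 8 endothelial genes were higher, 8 of 8 microglia genes and 4 of 8 Mueller glia genes were lower, and of the pericyte genes 1 was higher and 2 were lower, beside 9.04% of all genes higher and 12.1% lower. Against control with minocycline, 3 of 10 tested epithelial genes were higher in edgeR at an adjusted p under 0.05 (beside 0.162% of all genes). Of these, Dsg1a and Dsc3 had 0 or 1 count in each control and passed the filter through the minocycline libraries, and 0 genes of the other marker lists passed the test.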
